A study of Mus musculus with 8 samples.

Results

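The genes described here are 46 mouse genes known to be switched on by interferons, the interferon-stimulated genes. They were chosen by gene symbol, with earlier results of these data known. Their shares beside those of all tested genes are therefore descriptive and no test of the set. Probes for 43 of the 46 were on the array, and 28 passed the filter on dim probes and were tested, of 7178 genes tested and 19057 genes named on the array. The filter kept probes that exceeded the lowest deposited value, an intensity floor of 20, on 4 or more of the 8 arrays, in either group.

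RNA came from sorted bone marrow cells that carried CD71, the transferrin receptor, and Ter119, an erythroid surface marker, a pair that marks developing red blood cells. Illumina bead arrays, in which the fluorescence of probes on beads stands for expression, gave the levels. The study set 4 KAP1 knockouts (KO: A4, A8, A11, A13) beside 4 wild-type samples (WT: C4, C6, C8, C9), in work on erythropoiesis under KRAB zinc finger proteins and KAP1. The Trim28 gene encodes KAP1, which KRAB zinc finger proteins recruit to silence their DNA targets, among them endogenous retroviruses.

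The labels give all 8 samples, WT included, the same alleles, Kap-flox and stopfloxYFP, with a mixed strain background and an age of 8 to 12 weeks, and they record no treatment. The driver of recombination, any agent used to induce it and the number of animals behind a sample are not given in the labels used here. The p-values therefore measure the spread between these samples, part of which may be technical. Each sample gave 100 ng of RNA, amplified and labelled with biotin. In such bulk RNA, fewer cells of a type and less RNA per cell cannot be told apart.

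Type I interferons bind a receptor that signals through JAK kinases to a transcription factor complex that holds STAT2 and IRF9 and binds the interferon-stimulated response element (ISRE) in target promoters. Interferon gamma acts mainly at another element, GAS. The induced proteins sense foreign RNA, degrade it, block viral entry or budding, or damp the response itself, and part of the set is expressed at a low level without infection.

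Promoters are shown because interferon signalling acts on many of these genes through such elements. RefSeq promoters (assembly GRCm38.p6, 250 bases before to 50 after the start) were at hand for 31 of the 46 genes. The ISRE core was searched as GAAANNGAAA on both strands, overlapping matches included, and it lay in 20 of the 31, or 64.5%, against 3.99% of 27025 genes with a promoter. The GAS letters TTCNNNGAA, which read as the same pattern on both strands, lay in 8 of the 31, or 25.8%, against 9.55% of all genes. Each stretch below is written 5′ to 3′ on the gene's strand, with the cores and any joined cores in capitals and 10 bases on each side. The first is from the member with the smallest adjusted p, the next 4 are from members that were measured well above the floor or whose groups did not overlap, and the last 3 show a gene pair with the same letters and a gene at the floor on every array.
Rsad2, chr12:26456553-26456582, minus strand: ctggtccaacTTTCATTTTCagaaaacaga
Isg15, chr4:156200865-156200906, minus strand: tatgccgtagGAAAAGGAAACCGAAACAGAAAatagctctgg
Bst2, chr8:71537577-71537612, minus strand: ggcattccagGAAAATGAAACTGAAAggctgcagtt
Irgm1, chr11:48871425-48871460, minus strand: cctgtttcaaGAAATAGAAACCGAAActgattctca
Igtp, chr11:58199512-58199541, plus strand: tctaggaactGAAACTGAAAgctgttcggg
Oas1a, chr5:120907520-120907555, minus strand: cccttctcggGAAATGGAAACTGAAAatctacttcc
Oas1g, chr5:120887606-120887641, minus strand: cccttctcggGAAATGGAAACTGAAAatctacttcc
Ifit1, chr19:34640775-34640823, plus strand: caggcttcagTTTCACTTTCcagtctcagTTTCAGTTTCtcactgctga

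In Isg15, Bst2 and Irgm1 several cores overlap, whereas the Rsad2 and Igtp stretches hold 1 core each. The first core began 120 bases before the start of Rsad2, 78 before Isg15, 130 before Bst2, 30 before Irgm1 and 34 before Igtp. Oas1a and Oas1g, neighbouring copies of one family, hold identical letters in these stretches, and their probes may not tell such close copies apart.

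The KO samples had lower levels of 3 of the 28 tested genes and higher levels of none, at an adjusted p under 0.05 in limma. Rsad2 (viperin, an enzyme that makes a chain-terminating nucleotide) was 2.85-fold lower, Oasl2 (a protein of the oligoadenylate synthetase family) 4.33-fold lower and Ifi27 (a mitochondrial and nuclear membrane protein) 1.71-fold lower. These 3 are 10.7% of the tested genes, against 3.25% of all tested genes called lower and 2.4% called higher. Without A13 the count was 1, Rsad2. With the p-value of the authors' deposited table, adjusted over the tested probes, it was 0, with a smallest adjusted p of 0.0555 and 7 genes lower at an unadjusted p under 0.05. At an unadjusted p under 0.05 in limma, 8 of the 28 were lower and 0 higher, or 28.6% and 0%, against 9.92% and 15.3% of all tested genes. The 8 were Zbp1, Oasl2, Irf7, Usp18, Bst2, Rsad2, Ifi27 and Ifi27l2a.

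Counted without a test, every KO sample lay below every WT sample for 6 of the 28, Zbp1, Oasl2, Usp18, Bst2, Rsad2 and Ifi27, or 21.4% against 7.38% of all tested genes. The opposite order was seen for Oas2 alone, or 3.57% against 11.3%. Oas2 passed the filter mainly through KO, and its lowest KO and highest WT samples were both next to the floor. The log2 fold change of KO over WT was below 0 for 18 of the 28, with a median of -0.25, beside a median of 0.11 over all tested genes. The changes ran from -2.11 to 0.72, on both sides of 0, and most of the genes did not pass the test.

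**Figure D1:**
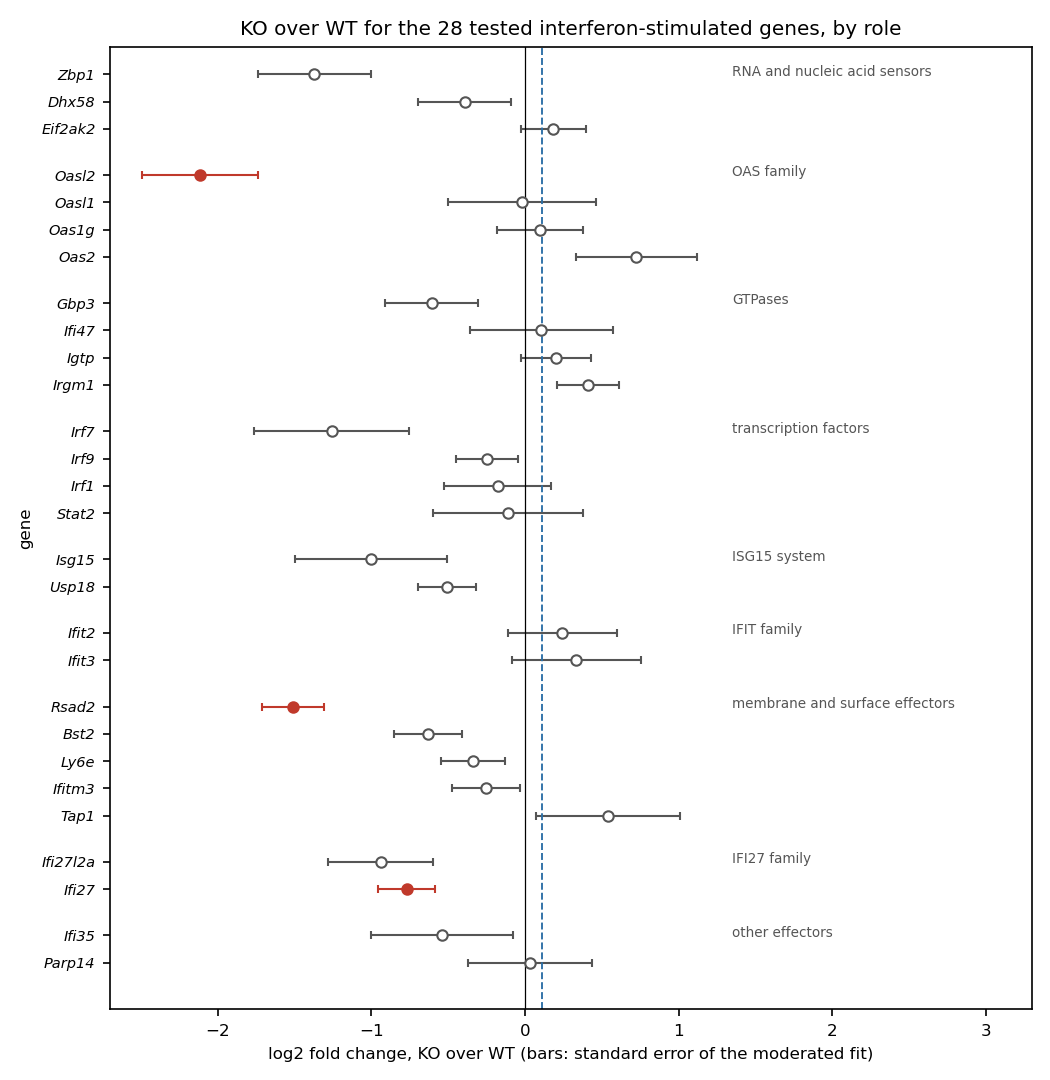
Log2 fold change of KO over WT for the 28 tested genes, grouped by role, with the standard error of the moderated fit as bars. Filled red points are the 3 genes with an adjusted p under 0.05, all to the left of 0, and the dashed line marks the median of all tested genes at 0.11.

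Of the remaining 18 genes, 10 were at the floor in every probe on every array. These were Ddx58 and Ifih1 (the RNA sensors RIG-I and MDA5), Oas1a, the GTPases Mx1, Mx2 and Gbp6, Ifit1, Ifi204, Xaf1 and the chemokine Cxcl10, and a change below the floor cannot be seen for them. A further 5 rose above the floor on too few arrays: Oas3 and Trim30a on 3 arrays, Gbp2 and Rtp4 on 2 and Iigp1 on 1. Ifi44, Ifi203 and Ly6a had no probe with that gene name. Just inside the limit, Oas2 was above the floor on 5 arrays, 4 of them KO. The filter thus took in Oas2 mainly through the group where it was higher.

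Among the nucleic acid sensors, Zbp1, which binds Z-form nucleic acid and can trigger necroptosis, read 26.4 in A4, 28.1 in A8, 21.8 in A11 and 40.3 in A13, against 56.6 in C4, 52.0 in C6, 62.6 in C8 and 157 in C9, the order of samples kept for each gene below. The groups did not overlap, and C9 stood far above the other WT samples. The log2 fold change was -1.37 ± 0.37 (SE, n = 4 per group) with an adjusted p of 0.0627 in limma. Dhx58 (LGP2, a helicase that modulates RIG-I and MDA5 signalling) read 64.1, 112, 59.0 and 48.0 in KO against 101, 61.9, 113 and 84.9 in WT. Its groups overlapped, with a log2 fold change of -0.39 and an adjusted p of 0.441 in limma. A second Dhx58 probe separated the groups, at -0.94 with an adjusted p of 0.0617 in limma, so the probes of this gene differ in the size of the change. Eif2ak2, the kinase PKR that halts translation when it binds double-stranded RNA, ran from 320 to 385 in KO against 244 to 399 in WT.

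In the oligoadenylate synthetase (OAS) family, whose catalytic members make the small molecule that activates RNase L, Oasl2 was the member that passed the test. Its intensities were 97.3, 138, 107 and 95.1 in KO and 1037, 294, 484 and 323 in WT. All KO samples lay below all WT samples, and C4 was the highest of the 8. The log2 fold change was -2.11 ± 0.38 (SE, n = 4 per group), with an adjusted p of 0.0159 in limma. It lay between -2.34 and -1.73 when each sample was left out in turn, and the adjusted p rose to 0.0553 without A13. On another Oasl2 probe all 4 KO samples sat at the floor, and WT read 95.9 in C4, 20 in C6, 46.2 in C8 and 24.8 in C9, above the floor on too few arrays to be tested.

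The other OAS genes went no single way. Oas2 read 28.1, 83.2, 25.4 and 20.3 in KO, and 20.2 in C8 with the other WT samples at the floor. The log2 fold change was 0.72 with an adjusted p of 0.287 in limma. KO lay above WT only by A13 at 20.28 against C8 at 20.19, both next to the floor of 20. Since the probe passed the filter mainly through KO, no direction is read from it, and signals below the floor cannot be sized. Oas1g, whose promoter letters are printed above, read from 122 to 261 in KO against 126 to 215 in WT. Oasl1, which in mouse restrains Irf7 translation, ran from 27.4 to 84.7 in KO against 20 to 78.0 in WT, and neither gene's groups were apart. The promoter of Oasl2 (RefSeq, GRCm38.p6, chr5:114896684-114896983, plus strand), shown whole because Oasl2 was called lower, holds neither the ISRE core nor the GAS letters:
Oasl2: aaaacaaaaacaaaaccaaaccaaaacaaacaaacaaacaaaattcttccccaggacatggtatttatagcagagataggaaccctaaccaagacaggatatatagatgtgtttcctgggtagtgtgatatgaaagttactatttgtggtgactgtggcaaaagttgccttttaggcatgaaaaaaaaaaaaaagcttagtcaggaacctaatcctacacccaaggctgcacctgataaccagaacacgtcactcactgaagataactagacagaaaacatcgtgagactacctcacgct

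Of the GTPases, the immunity-related and guanylate-binding ones act on membranes around pathogens. Of the 9 GTPases listed, 4 were tested and none changed at an adjusted p under 0.05 in limma. Irgm1, an immunity-related GTPase that governs autophagy and blood stem cell upkeep in mouse, read 3613, 5437, 5754 and 5698 in KO and 3622, 3565, 3972 and 3998 in WT. A4 sat with the WT samples, and the other 3 KO samples lay above all WT samples. The log2 fold change was 0.41 ± 0.20 (SE, n = 4 per group) with an adjusted p of 0.238 in limma. On a second tested Irgm1 probe the groups overlapped, at 0.08 with an adjusted p of 0.849 in limma. Gbp3, a guanylate-binding protein, read 48.9, 87.2, 32.5 and 42.4 in KO and 96.2, 66.1, 66.9 and 74.5 in WT, lower in all KO samples except A8. Its log2 fold change was -0.61 with an adjusted p of 0.247 in limma, while its second tested probe gave 0.18. Igtp, another immunity-related GTPase, ran from 1306 to 1692 in KO against 993 to 1805 in WT, and Ifi47 from 28.3 to 82.9 and from 20 to 82.4.

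**Figure D2:**
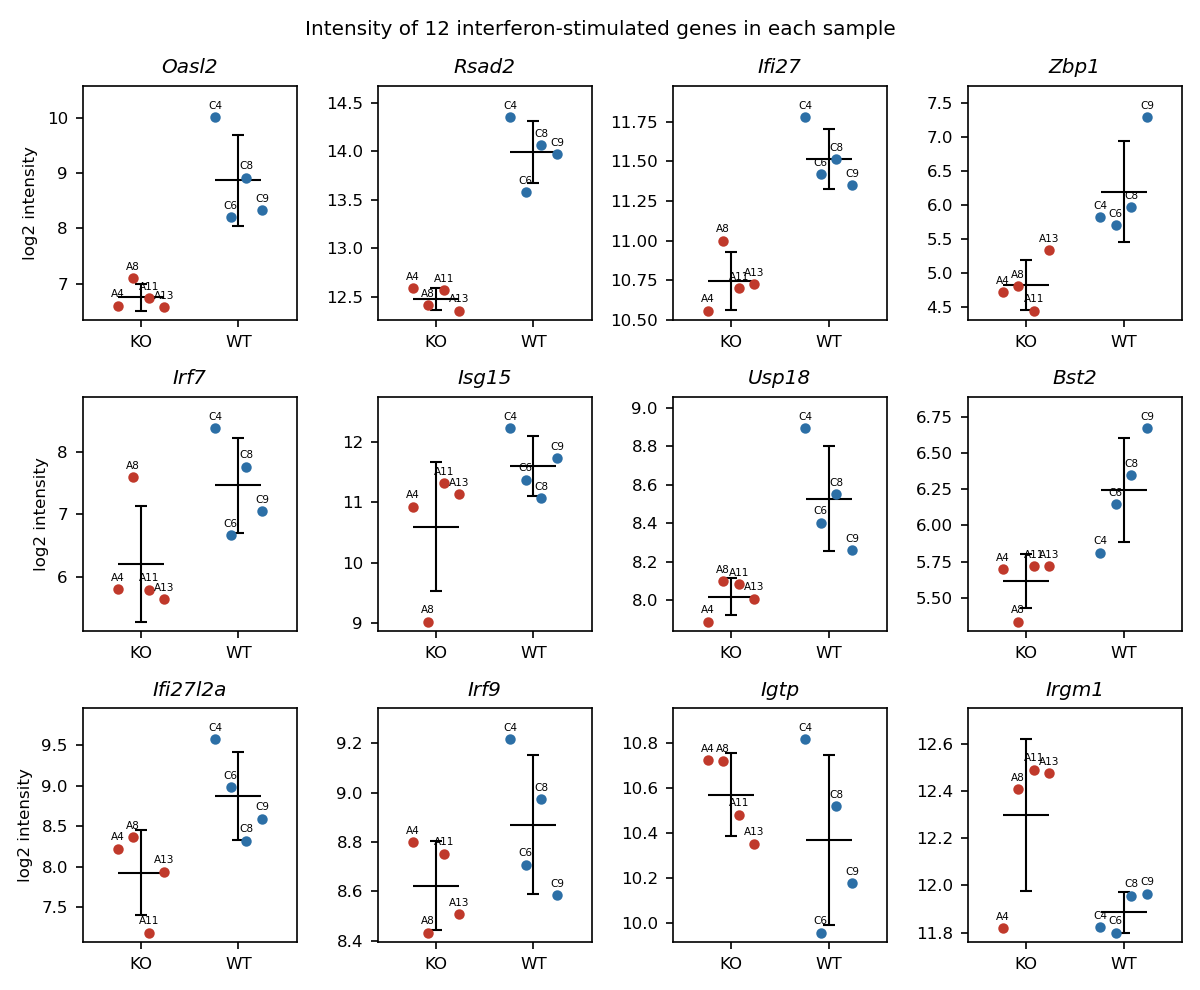
Log2 intensity of 12 interferon-stimulated genes in each of the 4 KO (red) and 4 WT (blue) samples, with the group mean as a line, the SD over 4 samples as bars and each gene on an axis of its own range. Rsad2, Oasl2, Ifi27, Zbp1, Usp18 and Bst2 show no overlap between the groups, and A8 stands apart from the other KO samples for Irf7 and Isg15.

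All 4 transcription factors were tested, all with a log2 fold change below 0 and none past the threshold in limma. Irf7, the factor that amplifies type I interferon production, read 55.9, 193, 55.6 and 49.9 in KO and 333, 102, 217 and 133 in WT. A8 lay inside the WT range and the other 3 KO samples below it. Its log2 fold change was -1.26 ± 0.50 (SE, n = 4 per group) with an adjusted p of 0.164 in limma, and without A8 it was -1.72 with an adjusted p of 0.0415. Irf9, a DNA-binding part of the complex that holds STAT2, read 445, 346, 431 and 364 in KO and 595, 418, 502 and 384 in WT. The groups overlapped, with a log2 fold change of -0.25 and an adjusted p of 0.473 in limma. Irf1, which also answers interferon gamma, ran from 227 to 363 in KO against 165 to 525 in WT. Stat2 lay between 20 and 79.4 over all samples, and its highest sample was C4.

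Isg15, a ubiquitin-like protein joined to other proteins during the response, and Usp18, the protease that removes it and also blocks the receptor, were both above the floor on all 8 arrays. Isg15 read 1940.5, 520.3, 2540.3 and 2238 in KO and 4784, 2645, 2145 and 3392 in WT. A8 was the lowest of the KO samples by far, and A11 and A13 lay above C8, the lowest WT sample. The log2 fold change was -1.001 ± 0.50 (SE, n = 4 per group) with an adjusted p of 0.245 in limma, and without A8 the fold was 1.39, with an adjusted p of 0.329. Usp18 read 237, 274, 271 and 257 in KO and 476, 338, 375 and 306 in WT. No KO sample reached a WT sample, but the log2 fold change of -0.51 ± 0.19 (SE, n = 4 per group) had an adjusted p of 0.143 in limma. On a second Usp18 probe the groups overlapped, with 78.1, 20, 74.4 and 80.1 in KO against 59.8, 69.8, 73.2 and 93.1 in WT and an adjusted p of 0.592 in limma.

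The IFIT proteins bind foreign RNA ends and stall translation. Ifit1 was at the floor everywhere, and the other two were dim. Ifit2 read 41.7, 53.0, 47.1 and 43.3 in KO and 20, 72.2, 46.9 and 33.9 in WT. Ifit3 read 36.7, 74.6, 20 and 36.5 in KO and 34.1, 50.2, 20 and 23.004 in WT. Groups overlapped in both, with log2 fold changes of 0.24 and 0.34 and adjusted p-values of 0.698 and 0.651 in limma.

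Among proteins of membranes and the cell surface, Rsad2, an enzyme of the endoplasmic reticulum, passed the test. It read 6162, 5469.5, 6080.1 and 5250.3 in KO and 20947, 12252, 17130.4 and 16080.5 in WT. The KO samples lay close together, at a mean log2 intensity of 12.48 ± 0.11 (SD, n = 4), and all WT samples lay above them, at 13.99 ± 0.32 (SD, n = 4). The log2 fold change was -1.51 ± 0.20 (SE, n = 4 per group) with an adjusted p of 0.00454 in limma. It stayed between -1.65 and -1.39 with each sample left out in turn, and the highest of those adjusted p-values was 0.0221. The promoter of Rsad2 (RefSeq, GRCm38.p6, chr12:26456403-26456702, minus strand) is shown whole with its ISRE core in capitals:
Rsad2: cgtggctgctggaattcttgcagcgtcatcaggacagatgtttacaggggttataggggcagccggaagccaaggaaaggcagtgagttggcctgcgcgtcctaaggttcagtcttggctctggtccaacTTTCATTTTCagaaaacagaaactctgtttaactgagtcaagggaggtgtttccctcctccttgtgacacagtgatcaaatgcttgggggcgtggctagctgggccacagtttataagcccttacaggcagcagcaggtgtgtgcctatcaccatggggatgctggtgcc

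Bst2 (tetherin), which holds budding virus at the cell surface, read 51.8, 40.3, 52.6 and 52.6 in KO and 56.1, 71.0, 81.4 and 102 in WT. The groups did not overlap, with C4 the WT sample nearest to KO, and the log2 fold change of -0.63 ± 0.22 (SE, n = 4 per group) had an adjusted p of 0.127 in limma. Ifitm3, which blocks viral entry from endosomes, ran from 1398 to 2291 in KO against 1745 to 2358 in WT. Ly6e, a lipid-anchored surface protein, ran from 902 to 1591 in KO against 1425 to 1781 in WT, with A8 alone of the KO samples inside the WT range. Tap1, the peptide transporter for antigen presentation, was dim and ran from 23.2 to 103 in KO against 20 to 41.9 in WT.

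Both members of the IFI27 family, small proteins of mitochondrial and nuclear membranes, were tested. Ifi27 read 1507, 2047, 1666 and 1692 in KO and 3518, 2740.2, 2928 and 2612 in WT. The groups were apart, with A8 the KO sample nearest to WT, and the log2 fold change was -0.77 ± 0.18 (SE, n = 4 per group) with an adjusted p of 0.0447 in limma. A second Ifi27 probe also separated the groups, at -0.85 with an adjusted p of 0.0308 in limma. The first probe's call was the less secure of the 3 calls among the tested genes: it was kept without A8 or without C6, and with any other sample left out the adjusted p was above the threshold, up to 0.121. Ifi27l2a read 299, 329.9, 146 and 245 in KO and 763, 505, 320.4 and 386 in WT, with A8 just above C8. Its log2 fold change was -0.94 with an adjusted p of 0.134 in limma. Of the other effectors, Ifi35 read 162, 36.0, 158 and 138 in KO and 198, 133, 133 and 161 in WT. Only A8 departed from the rest there, and the log2 fold change of -0.54 had an adjusted p of 0.494 in limma. Parp14, an ADP-ribosyltransferase, read 143, 192, 72.6 and 81.1 in KO and 202, 75.3, 118 and 82.9 in WT, with a log2 fold change of 0.03 and an adjusted p of 0.969 in limma. Its other tested probe, at the floor in A13 and C6, gave -0.92 with an adjusted p of 0.140 in limma, so the probes of this gene differ.

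By role, the medians of the log2 fold change were -0.39 for 3 sensors, 0.04 for 4 OAS genes and 0.15 for 4 GTPases. They were -0.21 for the 4 transcription factors, -0.75 for the 2 genes of the ISG15 system and 0.29 for 2 IFIT genes. The 5 membrane and surface genes had a median of -0.34 and the 2 genes of the IFI27 family one of -0.86. For the other effectors, 2 genes, it was -0.25. The medians thus lay on both sides of 0, with the RNA-sensing group below it and the GTPase group just above it. The median over all tested genes was 0.11. The OAS median of 0.04 includes Oas2, at 0.72, which passed the filter mainly through KO. The other OAS genes were at 0.10 for Oas1g, -0.02 for Oasl1 and -2.11 for Oasl2, so no direction is read from that median.

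Tested genes with the ISRE core in their promoter numbered 11, of which 6 had a log2 fold change below 0, with a median of -0.11 and 1 call, Rsad2. The 9 tested genes whose promoter lacked it also had 6 below 0, with a median of -0.18 and 1 call, Oasl2. Only exact matches to the core letters within these promoters were counted. A gene with a variant of the core, or with one farther away, thus counts as lacking it, and no conclusion is drawn from the split. The other 8 had no promoter at hand, with a median of -0.45 and 1 call, Ifi27. The core was present in 9 of the 11 untested genes with a promoter, or 81.8%, and in 11 of the 20 tested ones, or 55.0%.

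The set varied between samples of 1 group as well as between groups. The mean log2 intensity over the 28 genes was 7.57, 7.89, 7.40 and 7.48 in A4, A8, A11 and A13, and 8.29, 7.84, 7.89 and 7.73 in C4, C6, C8 and C9. A8 alone of the KO samples overlapped the WT range. C4 was the highest of the 8 samples for 17 of the 28 genes, or 60.7%, against 13.4% of all tested genes, and A8 was the highest KO sample also for 17, or 60.7%, against 43.5%. A8 correlated less with its own group over the tested probes (mean r 0.894) than the other 7 samples did with theirs (0.934 to 0.950). With A8 and C4 both left out, Rsad2 and Oasl2 were still called, with log2 fold changes of -1.37 and -1.85 and adjusted p-values of 0.0256 and 0.0160 in limma, and Ifi27 was not, at -0.77 and 0.0831. The median over the 28 genes was then -0.11.

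**Figure D3:**
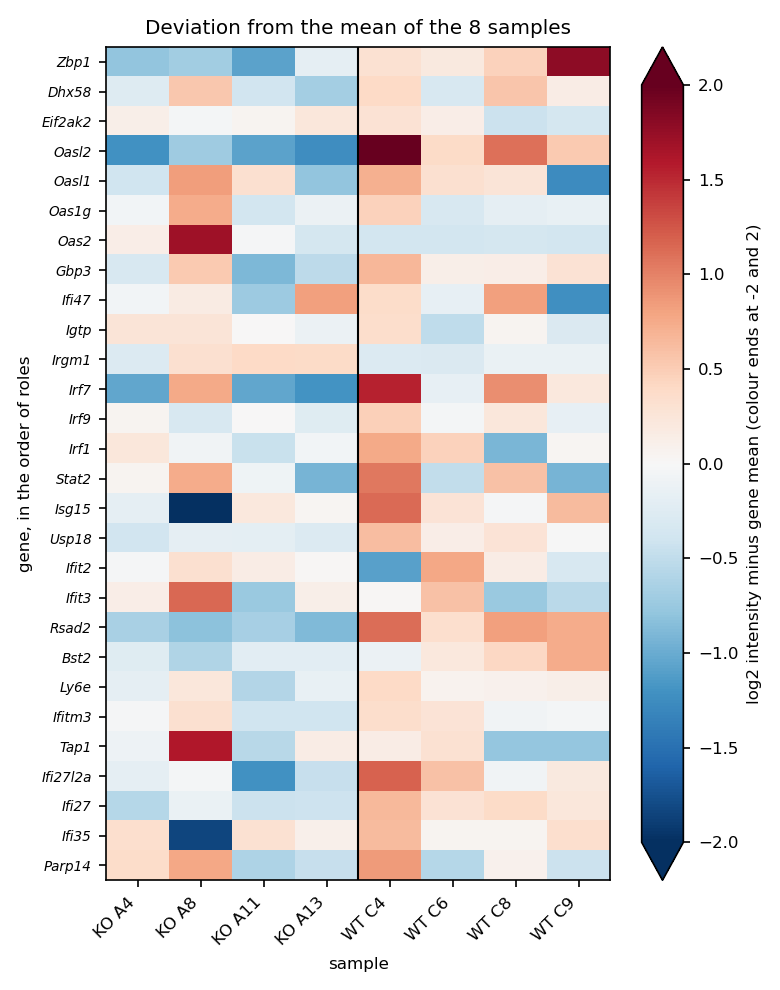
Log2 intensity of each of the 28 tested genes minus its mean over the 8 samples, KO to the left of the line and WT to the right, with colours ending at -2 and 2. C4 holds the highest value for 17 of the 28 genes, and A8 differs from the other KO samples in both directions.

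Trim28, the targeted gene, checks the labels: it read 207, 171, 141 and 131 in KO and 739.8, 395, 641 and 406 in WT, without overlap. Its log2 fold change was -1.71 with an adjusted p of 0.00850 in limma. The position of its probe relative to the deleted part is not given in the labels used here.

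Interferon genes themselves were mostly not seen. Of 20 listed names, 17 had a probe, 14 of these were at the floor on every array and 2 were tested. Older and newer names of the same gene, such as Il28a and Ifnl2, were listed apart. Ifna6, an interferon alpha gene, read 27.7, 27.0, 29.2 and 22.1 in KO and 74.3, 41.3, 48.0 and 61.9 in WT, all close to the floor and without overlap. It fell by 1.06 on the log2 scale with an adjusted p of 0.0311 in limma. The call was kept without A8 or without C6 and lost without any other sample, up to an adjusted p of 0.0988. Ifna6 had 4 probes on the array, and no other of them passed the filter. Ifnab, of the same family, read from 54.1 to 65.6 in KO against 66.9 to 111 in WT, with an adjusted p of 0.168 in limma. The genes of this family are close copies of each other, and a probe may not tell them apart.

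Downstream of the interferons, 0 of 5 tested receptor genes passed the test in limma, with a median log2 fold change of -0.05. The smallest adjusted p-values there were 0.137 for Il10rb, a chain shared with interferon lambda, and 0.370 for Ifnar2, a chain of the type I receptor. Among 9 tested genes of JAK-STAT signalling and its inhibitors, 1 rose and none fell. That gene was Cish, a STAT5 target and inhibitor of cytokine receptors, which read 470.4, 660.3, 496 and 278 in KO and 64.3, 40.8, 94.2 and 31.1 in WT. Its log2 fold change was 3.11 ± 0.38 (SE, n = 4 per group) with an adjusted p of 0.00336 in limma, and all KO samples lay above all WT samples. Cish is known chiefly as a target of erythropoietin and other STAT5-activating cytokines, not of interferon.

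Of 10 tested genes that lead from sensors to interferon production, none passed the test in limma. The smallest adjusted p-values were 0.0617 for Traf6, a ubiquitin ligase, with a log2 fold change of 1.23, and 0.0882 for the kinase Tbk1, at -0.53. They were followed by 0.0921 for Unc93b1, which carries nucleic acid receptors to endosomes, at -1.31, and 0.188 for the DNA sensor Cgas, at 0.66. All 4 KO samples lay above all WT samples for Traf6 and below them for Tbk1 and Unc93b1, so the genes of this step did not share a direction.

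A wider list of 66 other interferon-induced genes had 43 tested genes, of which 2 fell and 0 rose at an adjusted p under 0.05 in limma, against 233 and 172 of the 7178 genes tested, or 3.25% and 2.4%. Of the 43, 29 had a log2 fold change below 0, with a median of -0.21, beside 2993 of all 7178. Counts and ranks in this list rest on each gene's tested probe of highest mean. A dimmer probe of Pml was higher in KO, at 0.92 with an adjusted p of 0.0320 in limma. Dimmer probes of Shisa5 and Dtx3l were lower, at -1.12 and -1.42, with adjusted p-values of 0.0298 and 0.0373 in limma. The probes that stand for Pml, Shisa5 and Dtx3l had adjusted p-values of 0.999, 0.0625 and 0.339 in limma. Isg20, an exonuclease that degrades RNA, read 258, 188, 354 and 281 in KO and 1048, 611, 817 and 873 in WT. Every KO sample lay below every WT sample, and the log2 fold change was -1.64 ± 0.25 (SE, n = 4 per group) with an adjusted p of 0.00781 in limma. The call held with each sample left out in turn, with an adjusted p of up to 0.0324. Trim34a, a TRIM protein, read 41.2, 26.4, 21.9 and 21.5 in KO and 99.4, 64.7, 91.0 and 44.9 in WT, without overlap. It fell by 1.42 on the log2 scale with an adjusted p of 0.0357 in limma, and the call was lost without A8, A11, A13, C4 or C8, up to 0.108. Its other tested probe gave -0.83 with an adjusted p of 0.242.

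The next smallest adjusted p-values of that list were 0.0526 for the chemokine Ccl5, at -1.38, and 0.0581 for Uba7, the enzyme that activates Isg15, at 0.64. Ube2l6, the enzyme that carries Isg15 next, was looked at after its values were seen. It read 3565, 20, 2607 and 2959.8 in KO and 13809.5, 7543, 7148 and 12050.1 in WT, so that A8 alone was at the floor. The fold of 11.3 had an adjusted p of 0.183 in limma, and without A8 it was 3.22 with an adjusted p of 0.0159. Its second tested probe read 1691, 98.3, 1728 and 1985 in KO and 9626, 5083, 7869 and 8630 in WT, with A8 again far below the rest. That probe was 8.74-fold lower in KO, without overlap, at an adjusted p of 0.0710 in limma. Of the genes that build Isg15 conjugates, Uba7 thus had all KO samples above all WT samples and Ube2l6 all KO samples below.

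Markers of other cell types that a sort could hold were read beside these genes. Of 24 listed names of B lineage markers, 17 were tested, and all 17 had a log2 fold change below 0, with a median of -1.18. Spib, H2-Aa and Ly6d passed the test in limma. The mean log2 intensity of the 17 ran from 6.45 to 7.73 in KO against 7.79 to 9.16 in WT, without overlap. C4 was the highest sample there, as it was for the interferon-stimulated genes, whose means overlapped between the groups. Among the defining markers, Cd79b, a chain of the B cell receptor complex, read 624, 447, 245 and 549.6 in KO and 1642, 984, 925 and 663 in WT, without overlap, at a log2 fold change of -1.18 and an adjusted p of 0.0882 in limma. The log2 fold changes of Ebf1, Vpreb1, Vpreb3 and Cd72 were -1.10, -1.17, -1.48 and -1.47, with adjusted p-values from 0.0656 to 0.170 in limma, and the groups of Ebf1 and Cd72 did not overlap. Pax5 and Vpreb2 were at the floor on every array, Ms4a1 was above it on 1 array, and Cd79a had no probe with that name. The part of these cells in the lower Rsad2, Oasl2 and Ifi27 was not tested.

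Plasmacytoid dendritic cells, which make type I interferon, had 3 tested markers once Bst2 and Irf7 were set aside. All 3 had a log2 fold change below 0, with a median of -0.44, and none passed the test in limma. Their mean was 5.12 to 5.72 in KO and 5.57 to 6.37 in WT, which overlapped. With Bst2 and Irf7 included, all 5 were below 0. The mean of the 5 was 5.43 to 5.73 in KO and 6.16 to 6.39 in WT, without overlap. Ccr9, Klk1 and Il3ra were at the floor on every array. Of 14 tested monocyte and macrophage markers and 15 tested neutrophil markers, none passed the test, with medians of 0.16 and 0.32. Of 6 tested T and NK cell markers, 4 had a log2 fold change below 0 and 2 above it, with a median of -0.54. Cd2 was lower and was the only one to pass the test, while at an unadjusted p under 0.05 in limma 2 were lower and 2 higher. The mean of the 6 was 5.04 to 6.01 in KO and 4.83 to 6.13 in WT, which overlapped. The 16 tested erythroblast markers, the labelled cell type, lay far above the floor, with a mean of 11.56 to 11.97 in KO and 11.83 to 12.36 in WT. Of the 16, 11 had a log2 fold change below 0 and 5 above it, with a median of -0.14. In limma 2 passed the test as lower in KO and 0 as higher, beside 3.25% and 2.4% of all tested genes. The 2 were Alas2, the first enzyme of heme synthesis in red cells, and the beta globin gene Hbb-b2. The part of any of these lists in the values of the interferon-stimulated genes was not tested.

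**Figure D4:**
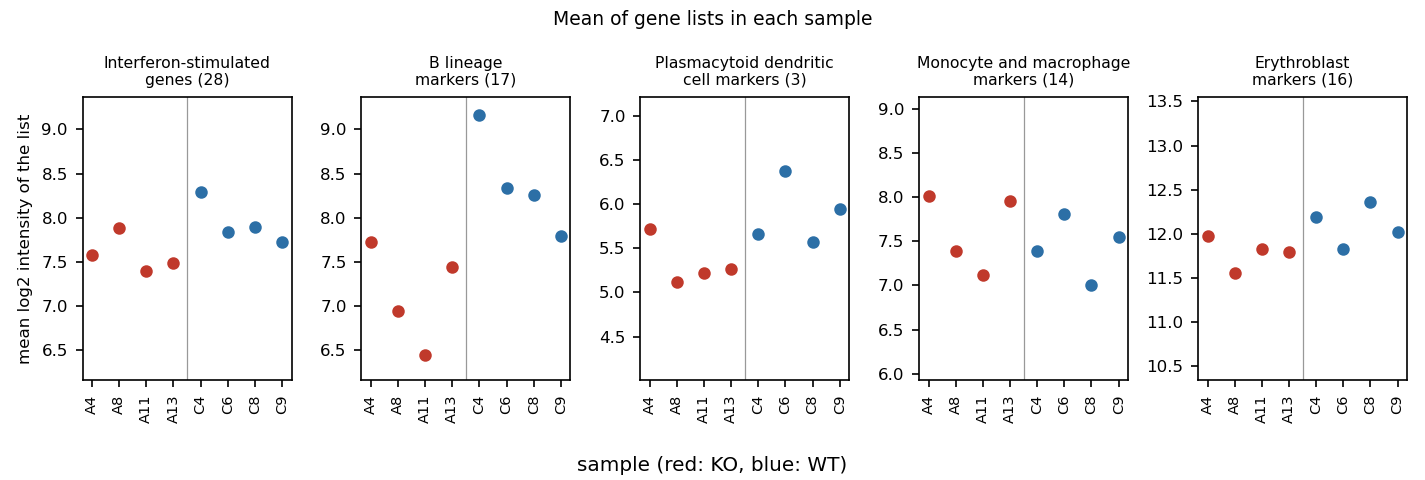
Mean log2 intensity of the 28 tested interferon-stimulated genes and of 4 marker lists in each sample (red KO, blue WT), each panel spanning the same height. The B lineage means of KO lie below those of WT without overlap, and those of the monocyte and erythroblast lists overlap.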

How the data were processed

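The authors' deposited table holds linear probe intensities, made, per the submitters' processing notes, in BeadStudio 3.1.3. The labels give none of its normalization settings. At 4959 of the 5000 highest ranks the 8 intensities matched within 0.1 percent, the mark of quantile normalization, which removes differences in overall brightness. No value lay below 20, and each array had 73.1% to 73.2% of its 45281 probes at this floor, which hides changes below it. The number of arrays limits the precision. The 8 signal columns of another deposited table match no sample label and were not used. The deposited fold, a signed score per probe, is the ratio of geometric means of the deposited intensities for all 45281 probes (tolerance 0.0001). The deposited p-value was used as an alternative only.

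Intensities were converted to log2, and the 12259 probes above the floor on at least 4 of 8 arrays were fitted with lmFit and eBayes in limma 3.58.1 (R 4.3.3), 4 KO against 4 WT with no covariate. Benjamini-Hochberg adjustment ran over all of them, with a threshold of 0.05, and the fit was tested on simulated data. Groups came from the sample titles. By the array annotation, 34885 probes have 1 gene name, 18 have several and 10378 have none, and 34807 matched the RefSeq genes of GRCm38.p6. Of several tested probes, the one with the highest mean stands for the gene. Since no probe's level is comparable with another's, levels are compared between samples only. Tables and figures were made with Python 3.11.15, pandas 2.3.3 and matplotlib 3.10.9.

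The members, lists and roles were chosen with earlier results of these data known. Values in every sample are given for members past the threshold, for the 2 members of smallest p in each role without one and for a few central genes (Irf7, Irf9, Isg15, Mx1, Ifit1, Cxcl10, Ddx58, Ifih1). Bst2, Oas2 and Ifi27l2a were added after their values were seen. Of the other lists, genes past the threshold and up to 4 of smallest p are named. Alternatives were other filters, an offset of 50, median centring, the deposited p-value, array weights, a trended and robust variance, the mean of a gene's probes, and leaving out each sample.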

Additional observations from a re-analysis of the deposited data

Results flagged for a closer look

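In 8 of the 58 groups of 4 samples examined, those of the 28 tested genes and of Trim28, 1 sample lay far from the other 3, by a gap to its nearest neighbour above Dixon's 95% critical value for its share of the range. Chance gives about 1 in 20 such groups. Of these 8, 4 concern KO sample A8. It was high for Irf7, at an intensity of 193 against 49.9 to 55.9 in the other KO samples. It was low for Isg15, at 520.3 against 1940.5 to 2540.3, for Bst2, at 40.3 against 51.8 to 52.6, and for Ifi35, at 36.0 against 138 to 162. KO sample A4 was low for Irgm1, at 3613 against 5437 to 5754. In WT, C9 was high for Zbp1, at 157 against 52.0 to 62.6, and C4 was high for Ly6e, at 1781 against 1425 to 1474. For Oas2, C8 read 20.2 with the other WT samples at the floor of 20, a gap of no size. The reasons were not tested.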

How the results depend on the processing

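The number of tested members called lower in KO was 3, and it was also 3 with probes above the floor on at least 1 or on all 8 arrays, with an offset of 50, after median centring, with a trended and robust variance, and with the mean of a gene's probes. It was 1 with no filter on low values, where p-values were adjusted over many more probes, and 6 with array quality weights (Zbp1, Oasl2, Gbp3, Irf7, Rsad2 and Ifi27). It was 0 with the authors' deposited p-value adjusted over the tested probes, where 7 members were lower at an unadjusted p under 0.05 and the smallest adjusted p was 0.0555. Leaving out each sample in turn gave 1 to 4 calls, the lowest without A13 and 4 without A8 or without C6. No member was called higher under any of these alternatives. The median log2 fold change of the tested members was -0.25; it was 0 with no filter, where most added genes sit at the floor, and ran from -0.38 to -0.15 with each sample left out. Leaving out A8 and C4 together, chosen after seeing the data, gave 2 calls and a median of -0.11.

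Single genes that changed sign all had an adjusted p above the threshold. With a sample left out, the log2 fold change ran from -0.13 to 0.27 for Oas1g, -0.22 to 0.32 for Parp14, -0.44 to 0.24 for Oasl1, -0.28 to 0.40 for Ifi47, -0.44 to 0.22 for Stat2, -0.51 to 0.044 for Irf1 and -0.078 to 0.54 for Ifit2. Array weights gave -0.084 for Oas1g and -0.23 for Parp14, and the mean of its probes gave -0.45 for Parp14. Without A8 and C4, the values were 0.040 for Irf1, -0.14 for Ifit2 and 0.10 for Ifi35. The cause was not tested. No paired analysis was possible because no label ties a KO sample to a WT sample. A change at a probe near the floor cannot be sized.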
